A study of Mus musculus with 147 samples.

Results

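Kupffer cells, the resident macrophages of the liver, were described here by the RNA that set them apart from 6 other myeloid populations in fasted mice. The members were the 6 libraries whose labels name Kupffer cells of fasted mice, out of 52 libraries of fasted mice, 110 libraries of the fasting and refeeding experiment and 147 libraries in the series. The study asked how macrophages of different tissues respond to short and long metabolic challenges. In the experiment used here mice were fasted for 12 h, and a second group was refed for 2 h after the fast. Adipose tissue macrophages, blood monocytes, microglia, colonic macrophages and peritoneal macrophages of fasted mice were represented by 8 libraries each, and islet macrophages by 6. The labels give no genotype, strain, sex or age for any group and name no agent besides the feeding regime. Each library started from 400 cells sorted with antibodies particular to its population, after an isolation protocol also particular to it, so that population and isolation cannot be told apart. The labels do not say whether a library came from 1 mouse or from pooled mice, and p-values therefore measure the spread between libraries. Islet libraries 1_2 and 5_6 carry joined numbers. The mice were handled in 4 cohorts, and the Kupffer libraries came from cohorts 1, 2 and 4, with 2 libraries in each.

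Kupffer cells sit in the hepatic sinusoids, where they remove particles, bacteria and aged red blood cells from portal blood and return the iron of haemoglobin to the circulation. Their identity is known to be kept by signals of the surrounding endothelial and stellate cells, among them Notch ligands and members of the TGF-beta and BMP family, which act together with the liver X receptor alpha (Nr1h3) and the helix-loop-helix inhibitors Id1 and Id3. Clec4f, a galactose-binding C-type lectin, and Cd5l, a secreted scavenger protein that is an LXR target, are used as their markers.

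The 6 Kupffer libraries held 9898784 to 19107257 counts and between 13338 and 14679 detected genes, against 9986282 to 23684196 counts in the other 46. Each of the 52 libraries was closer to the mean of the other libraries of its own population than to that of any other population. No pair of libraries of the same population was identical (0 of 170 pairs). Levels below are CPM, read counts relative to the library total after scaling for composition. A gene was called when edgeR's quasi-likelihood test, with cohort in the model, gave a Benjamini-Hochberg adjusted p under 0.05 and a difference of at least 1 log2 unit between Kupffer cells and the equally weighted mean of the 6 other populations. A gene was set apart when it passed the same 2 limits against each of the 6 populations separately. The fit holds 1 spread per gene, estimated over all 52 libraries. The p-value of a comparison with 1 population therefore does not measure the spread of those 2 groups alone. A gene can miss the limit although the 2 groups do not overlap. Fitted differences of genes that are near 0 in a population depend on the prior count of the model and are given as fitted values, not as folds.

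Of 16114 genes tested, 1517 were higher in Kupffer cells (9.41%) and 241 were lower (1.5%), and the median difference over all tested genes was 0.17 log2 units. Set apart from each of the 6 populations were 125 genes, of which 23 were lower (0.143%) and the others higher (0.633%). Every Kupffer library lay above every other library for 150 genes (0.931%) and below every other library for 3 genes (0.0186%). Within cohorts 1, 2 and 4 alone, with 2 Kupffer libraries each, 704, 664 and 689 genes were higher, and 0.297, 0.648 and 0.457% of the genes tested there were lower. The set-apart counts within those cohorts were 10, 13 and 7 genes higher and 2, 14 and 8 lower. Among genes with a mean of at least 5 CPM over all libraries (10465 genes), 726 were higher (6.94%) and 211 were lower (2.02%), so that higher genes made up 77.5% of the calls there and 86.3% of the calls over all tested genes.

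Both markers were at their highest in Kupffer cells. Clec4f, at chr6:83644542-83656187 on the minus strand of mm10, measured 7186, 9003 and 11993 CPM as the lowest, median and highest Kupffer library. The other 46 libraries ranged from 0 to 19.8 CPM with a median of 0.274 CPM. No other library came near the Kupffer range. The highest of them was a colonic library, and the median of the colonic libraries was 0.368 CPM. The fitted difference from the mean of the others was 13.36 ± 0.71 log2 units (SE, adjusted p = 6.77e-19), and within cohorts 1, 2 and 4 it was 13.36, 14.36 and 14.90. Cd5l (chr3:87357881-87371073, plus strand) measured 5528, 8904 and 10971 CPM in Kupffer cells. Peritoneal macrophages held the next level, 1606, 1934 and 2467 CPM, and no library of the remaining 5 populations exceeded 72.8 CPM. The fitted difference of Cd5l from the mean of the others was 9.59 ± 0.80 log2 units (adjusted p = 1.33e-12). From peritoneal macrophages alone it was 2.30 ± 1.13 with an adjusted p of 0.19, so Cd5l was not set apart. The 2 groups of libraries did not overlap, and that p-value rests on the spread over all populations.

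Upstream sequences are shown for 4 of the set-apart genes as examples. Clec4f and Cd207 are neighbours on chromosome 6, with 15028 bases between them. Cd300ld and Eng are 2 of the 4 set-apart genes with a GAGGAAGT motif, the type bound by the macrophage factor PU.1. Sequences are from RefSeq on GRCm38.p6 (the assembly of mm10), read 5′ to 3′ on the strand of the gene, up to 250 bases before its start, without bases that an annotated exon covers. Capitals mark GAGGAAGT or its reverse complement. The windows are chr6:83656188-83656366 for Clec4f, chr6:83677858-83678107 for Cd207, chr11:114989923-114990136 for Cd300ld and chr2:32646345-32646594 for Eng.
Clec4f: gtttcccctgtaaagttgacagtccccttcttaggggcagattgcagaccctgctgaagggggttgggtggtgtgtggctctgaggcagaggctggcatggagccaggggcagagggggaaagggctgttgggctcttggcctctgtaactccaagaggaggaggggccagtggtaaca
Cd207: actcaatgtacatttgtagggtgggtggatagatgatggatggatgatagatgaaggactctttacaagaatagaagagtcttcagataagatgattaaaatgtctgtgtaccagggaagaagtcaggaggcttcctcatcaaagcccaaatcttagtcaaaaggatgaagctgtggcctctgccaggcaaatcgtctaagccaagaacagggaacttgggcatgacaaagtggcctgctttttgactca
Cd300ld: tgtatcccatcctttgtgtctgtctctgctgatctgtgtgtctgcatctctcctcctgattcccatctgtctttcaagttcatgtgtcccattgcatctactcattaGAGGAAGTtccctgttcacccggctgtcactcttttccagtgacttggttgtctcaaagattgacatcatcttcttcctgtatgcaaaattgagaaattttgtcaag
Eng: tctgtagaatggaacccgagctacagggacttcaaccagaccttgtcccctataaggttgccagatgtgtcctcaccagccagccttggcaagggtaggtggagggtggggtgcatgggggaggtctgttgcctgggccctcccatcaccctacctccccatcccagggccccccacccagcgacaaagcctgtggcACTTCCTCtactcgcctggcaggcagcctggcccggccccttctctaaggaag
The motif lay 143 bases before the start of Cd300ld, counting 36 exon bases left out of the printed run, on the gene's own strand and 53 bases before that of Eng on the opposite strand. Searched on both strands of the 250 bases before the start, GAGGAAGT was present for 2.79% of the 27025 genes in the table and for 4 of the 78 set-apart higher genes found there (5.13%). The TATAAA box was present for 14.3% of all genes and 11 of the 78. The E-box CACGTG was present for 6.86% of all genes and 2 of the 78. The DR4 direct repeat, the type bound by liver X receptors, was present for 4 of the 27025 genes and none of the 78. Of the 27 genes of the Kupffer lists below that the table holds, 3 had TATAAA (Clec1b, Irf7 and Cxcl13) and none had the other 3 motifs. No searched pattern contains another, and a match is a description of sequence only.

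The list of Kupffer surface and secreted genes was higher almost throughout. Of 20 members tested, 19 were called higher and none lower, with a median difference of 8.20 log2 units against 0.17 over all tested genes. The counts of this and of the lists below stand beside shares of 9.41% higher and 1.5% lower over all tested genes. The list was written from general knowledge with earlier results of these data known, so its direction is not independent evidence. In 15 of the 20 the Kupffer mean was above that of each other population, which held for 14.1% of all tested genes. Set apart were 6: Clec4f, Cd207, Cdh5, Il18bp, Dmpk and Paqr9. Of the 6 other populations, the highest mean was in peritoneal macrophages for 8 of the 20, for 5 in colonic macrophages, for 3 in adipose tissue macrophages, and for 2 each in islet macrophages and microglia.

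**Figure D1:**
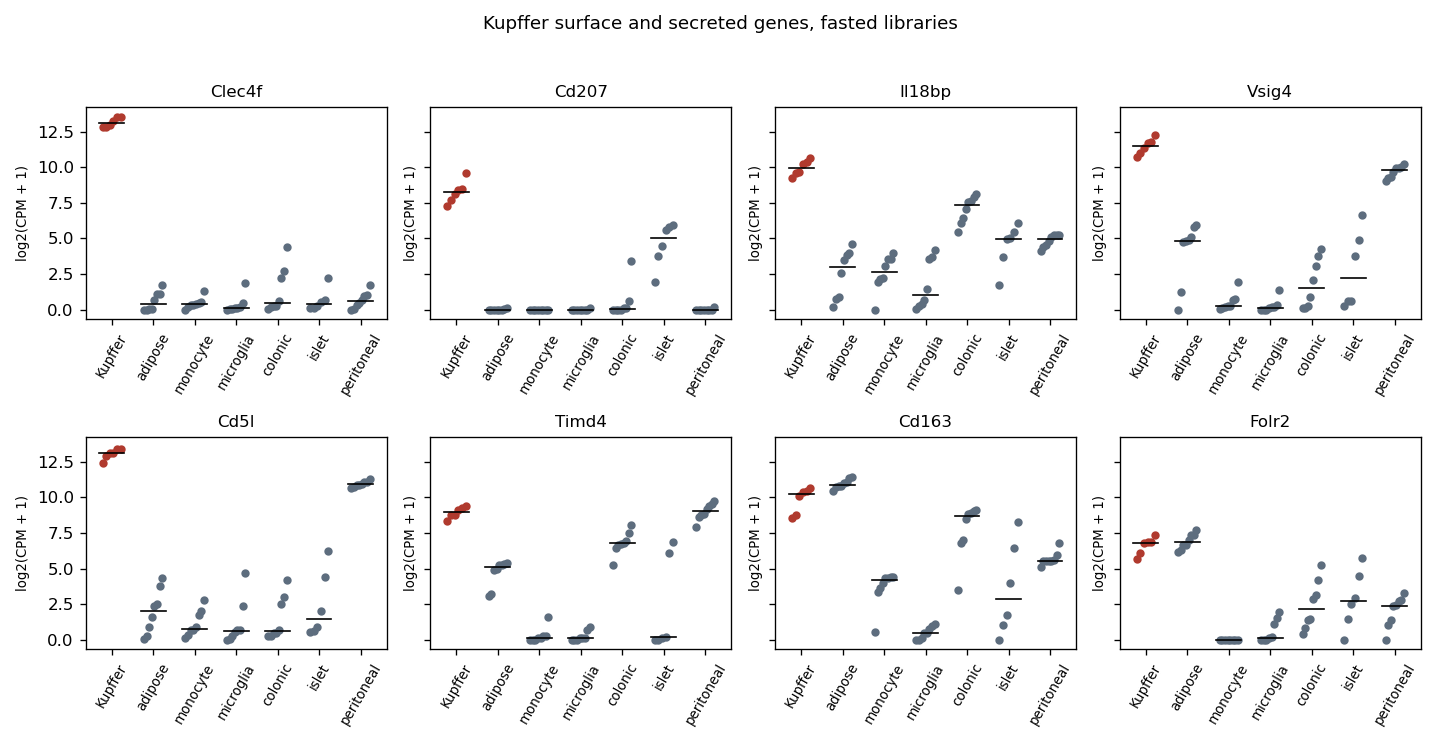
Each point is 1 library of fasted mice (red for Kupffer cells, grey for the other populations). Bars are medians, and the y axis is log2(CPM + 1). Clec4f, Cd207 and Il18bp are highest in all 6 Kupffer libraries, and Vsig4 and Cd5l have their next level in peritoneal macrophages. Timd4, Cd163 and Folr2 overlap with peritoneal or adipose tissue macrophages.

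Cd207 (langerin), a C-type lectin, measured 154, 304 and 785 CPM in Kupffer libraries. Islet macrophages held 2.78 to 59.1 CPM, all 8 monocyte libraries were at 0 counts, and no library of the other 4 populations exceeded 9.68 CPM. The Kupffer and islet libraries did not overlap, and the fitted difference between them was 2.99 ± 0.95 log2 units (adjusted p = 0.03). Il18bp, the soluble inhibitor of interleukin-18, measured 608, 1009 and 1604 CPM, and the highest other library held 277 CPM. Its smallest difference, from colonic macrophages, was 2.83 ± 0.88 (adjusted p = 0.0324). The exons of Il18bp overlap those of Numa1 on the opposite strand, and the counting strand is not given in the sources used here.

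Dmpk, a serine/threonine kinase, measured 465, 638 and 992 CPM in Kupffer cells and at most 67.7 CPM elsewhere, in peritoneal macrophages. Paqr9, a membrane receptor of the progestin and adipoQ family, measured 45.1, 89.5 and 122 CPM against at most 10.9 CPM. Cdh5 (VE-cadherin), an adhesion molecule shared by Kupffer and endothelial cells, measured 122, 182 and 209 CPM against at most 2.93 CPM. None of these 3 overlapped with any other library.

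Some members of the list were shared with peritoneal macrophages. Vsig4, a complement receptor of the immunoglobulin superfamily, measured 1689, 2949 and 4804 CPM in Kupffer libraries and 518, 894 and 1212 CPM in peritoneal libraries. The 2 groups did not overlap, but the fitted difference of 1.85 ± 1.02 log2 units had an adjusted p of 0.26, given the spread over all populations. Timd4, a phosphatidylserine receptor for apoptotic cells, measured 320, 498 and 655 CPM in Kupffer libraries and 240, 518 and 843 CPM in peritoneal libraries. These overlapped, and the difference was 0.07 ± 0.91. Timd4 still differed from the mean of the 6 others by 5.65 ± 0.64 (adjusted p = 3.25e-09). Marco, a scavenger receptor for bacteria, was called higher than the mean of the others by 7.80 ± 0.84, with 430, 704 and 1923 CPM in Kupffer libraries and a peritoneal mean of 587 CPM. Fcna (ficolin A), a lectin of the complement system, had a Kupffer mean of 2331 CPM against 1055 CPM in peritoneal macrophages, and Fabp7, a fatty acid binding protein, 410 against 129 CPM. The B cell chemokine Cxcl13 spread most within Kupffer cells, from 212 to 2244 CPM, and had a higher mean in peritoneal macrophages (1200 CPM) than in Kupffer cells (710 CPM).

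Other members were shared with adipose tissue macrophages. Cd163, the haptoglobin-haemoglobin scavenger receptor, measured 373, 1216 and 1618 CPM in Kupffer libraries and 1405, 1896 and 2779 CPM in adipose libraries. Folr2, a folate receptor of resident macrophages, measured 50.7, 111.1 and 164 CPM in Kupffer libraries and 70.1, 114.7 and 203 CPM in adipose libraries. Both overlapped between the 2 populations, with differences of -0.76 ± 0.82 and 0.06 ± 0.85 log2 units. Lyve1, on the adipose macrophage list rather than the Kupffer list, is a hyaluronan receptor of perivascular macrophages and of sinusoidal and lymphatic endothelium, with a mean of 328 CPM in Kupffer and 405 CPM in adipose tissue macrophages.

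The remaining members were Clec1b, C6, Pcolce2, Kcna2 and Xlr. Clec1b, the podoplanin receptor, averaged 665 CPM against 106.3 CPM in colonic macrophages, and C6, a component of the membrane attack complex, 1850 against 362 CPM. Clec1b shares exon bases with Clec9a on the same strand. Pcolce2, a procollagen proteinase enhancer, averaged 135 CPM against at most 2.23 CPM in another population, and Kcna2, a potassium channel, 69.0 against 3.30 CPM in microglia. Kcna2 was at 0 in 6 of 8 microglial libraries. The highest of them held 26.3 CPM, above the lowest Kupffer library (20.1 CPM). Xlr, a lymphocyte nuclear protein gene, was the member that was not called: it ranged from 7.31 to 41.6 CPM in Kupffer libraries and averaged 28.4 CPM in microglia, with a difference of 1.41 ± 0.55 from the mean of the others (adjusted p = 0.0866).

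Of 13 transcription regulators listed for Kupffer cells, 8 were called higher, none lower, and the median difference was 2.74 log2 units. Id1 and Id3, inhibitors of helix-loop-helix factors and targets of BMP signalling, were set apart. Id3 measured 1041, 1176 and 2023 CPM in Kupffer libraries against a highest value of 412 CPM in any other library, which was an adipose one. Its smallest difference was 3.08 ± 0.63 log2 units, from adipose tissue macrophages (adjusted p = 0.00067). Id1 measured 303, 451 and 628 CPM against at most 32.1 CPM, in a monocyte library, and its smallest difference was 5.50 ± 1.32 (adjusted p = 0.00215). Neither gene overlapped with another library.

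Nr1h3, which encodes the liver X receptor alpha, measured 409, 687 and 1011 CPM in Kupffer libraries and at most 182 CPM elsewhere, in an islet library. The groups did not overlap and the difference from the mean of the others was 5.81 ± 0.75 log2 units (adjusted p = 8.3e-08), but the comparison with colonic macrophages had an adjusted p of 0.0515, so Nr1h3 was not set apart. Spic, a factor of the PU.1 family tied to iron recycling in splenic macrophages, measured 138, 215 and 355 CPM and overlapped with 1 islet library at 147 CPM. The heterodimer partner Rxra averaged 176 CPM, the basic helix-loop-helix factor Tfec 88.4 CPM, and the interferon regulator Irf7 387 CPM. All 3 were called higher, by 2.74, 3.27 and 3.01 log2 units, as was Maf by 1.65. The next highest mean was 51.1 CPM in peritoneal macrophages for Rxra and 20.7 CPM in adipose tissue macrophages for Tfec. Irf7 averaged 261 CPM in monocytes, whose libraries (161 to 381 CPM) overlapped with those of Kupffer cells (296 to 495 CPM). Maf was highest in adipose tissue macrophages, with a mean of 190 CPM against 153 CPM in Kupffer cells.

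The general macrophage regulators were not called. Spi1 (PU.1) ranged from 465 to 791 CPM in Kupffer libraries and from 183 to 855 CPM in the others, a difference of 0.30 ± 0.14 log2 units. Zeb2 differed by 0.08 ± 0.13. Bach1, the haem-sensing repressor, differed by -0.88 ± 0.36 (adjusted p = 0.105), and without Kupffer replicate 2 or replicate 8 it was called lower, at -1.25 and -1.17. Runx3 was at or below 5.13 CPM in 5 Kupffer libraries and at 44.6 CPM in replicate 8. Without that replicate it was called lower (-3.64 log2 units, adjusted p = 0.0416).

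**Figure D2:**
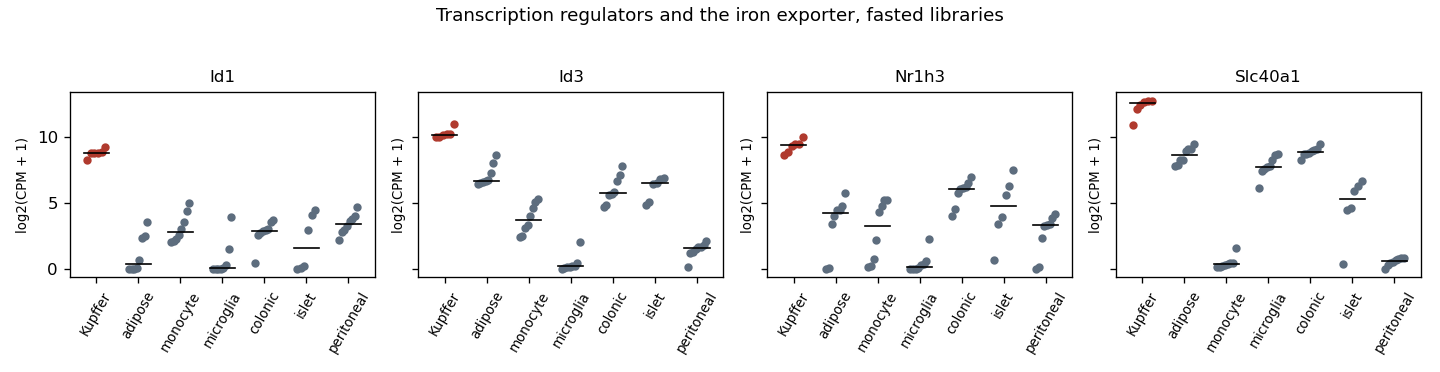
Each point is 1 library of fasted mice (red for Kupffer cells, grey for the other populations). Bars are medians, and the y axis is log2(CPM + 1). Id1, Id3, Nr1h3 and the iron exporter Slc40a1 are higher in all 6 Kupffer libraries than in any of the other 46.

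Genes of the Notch, TGF-beta and BMP pathways moved in both directions. Of 18 members, 5 were called higher (Eng, Hey1, Smad6, Hes1 and Acvrl1) and 2 lower (Rbpj and Notch2), and the median difference was 0.61 log2 units. Eng (endoglin), a co-receptor of the BMP receptor Acvrl1 and also an endothelial gene, measured 532, 783 and 1216 CPM in Kupffer libraries against at most 283 CPM, in microglia, and was set apart with a smallest difference of 2.16 ± 0.51 (adjusted p = 0.00157). Rbpj, the DNA-binding partner of Notch intracellular domains, went the other way and was set apart lower. It measured 14.1, 19.5 and 40.4 CPM in Kupffer libraries and from 25.04 to 234 CPM in the others, and its smallest difference was -1.42 log2 units, from monocytes (adjusted p = 0.00179). The receptor Notch2 averaged 113.6 CPM, against 387 CPM in peritoneal macrophages. Its difference of -1.11 log2 units fell short of the limit of 1 without replicate 4 (-0.98) or replicate 8 (-0.88). The Notch targets Hey1 and Hes1 were called higher by 8.18 and 2.73. Hey1 was low, with 3.46, 9.34 and 22.8 CPM, and Hes1 had a higher mean in colonic macrophages (621 CPM) than in Kupffer cells (231 CPM). Smad6, an inhibitor of BMP signalling, measured 2.81 to 17.5 CPM. The receptor Acvrl1 averaged 189 CPM and was called higher by 2.42 log2 units, but its mean was 227 CPM in islet macrophages.

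Genes for handling the iron of red blood cells were higher in 6 of 15 members tested and lower in none, with a median of 0.76 log2 units. Slc40a1 (ferroportin), the only known cellular iron exporter, measured 1909, 6126 and 7078 CPM in Kupffer libraries against at most 717 CPM, in a colonic library. Replicate 8 was the lowest Kupffer library, and still lay above all others. Its smallest difference was 3.39 ± 0.58 log2 units (adjusted p = 5.26e-05), and it was set apart. Slc48a1, which moves haem out of the phagolysosome, was set apart with 156, 280 and 298 CPM and a smallest difference of 1.04 ± 0.30 from adipose tissue macrophages (adjusted p = 0.0182). Its exons overlap Hdac7 on the opposite strand. Haem oxygenase Hmox1 measured 1303, 1865 and 3122 CPM, was called higher by 2.71 ± 0.25, and had a near-equal mean in islet macrophages (1769 CPM against 2032). The biliverdin reductase Blvrb, the ferritin receptor of autophagy Ncoa4 and the phagosomal metal transporter Slc11a1 were higher by 1.81, 1.45 and 1.05 log2 units. Without replicate 8, Slc11a1 fell below the limit (0.90). The ferritin chains Fth1 and Ftl1 were not called, at 0.05 and 0.76. Hfe, a regulator of iron uptake that was on no list, was among the set-apart genes with 438, 624 and 987 CPM against at most 361 CPM.

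Targets of the liver X receptors were called higher in 9 of 16 members and lower in none, and the median was 1.503 log2 units. Apoc1, an apolipoprotein of the Apoe cluster, was set apart with 418, 540 and 751 CPM against at most 77.8 CPM, in a peritoneal library, and a smallest difference of 3.58 ± 0.88 (adjusted p = 0.00262). Apoe itself measured 18863 to 53248 CPM, was called higher by 1.48 ± 0.19, and overlapped with islet macrophages (mean of 30754 CPM against 29207). Scd1, a fatty acid desaturase, was called higher by 4.22 and the phospholipid transfer protein Pltp by 2.98, but both had higher means in adipose tissue macrophages, 130 CPM against 54.998 for Scd1 and 2541 against 2035 for Pltp. Abca1, the cholesterol exporter, averaged 597 CPM against 575 in microglia. Synthesis of cholesterol was called in 1 of 19 members: squalene epoxidase Sqle was lower, at 0 to 1.31 CPM, with an adjusted p of 0.0401 that rose above the threshold when any 1 Kupffer library was left out (0.054 to 0.0959). Of 19 genes of fatty acid oxidation and its regulation, 4 were higher and none lower, and the median was 0.15, against 0.17 over all tested genes. Among them were Pdk4, Pparg and Angptl4, and none of these was an enzyme of the mitochondrial beta-oxidation spiral. Pdk4, the kinase that inhibits pyruvate dehydrogenase, spread from 0.759 to 58.7 CPM in Kupffer libraries, and adipose tissue macrophages averaged 124 CPM.

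Receptors for uptake were higher in large part. Of 20 scavenger and lectin receptors, 12 were called higher and 1 lower, with a median of 1.95 log2 units, and none was set apart. Siglec1 (CD169), a sialic acid lectin, measured 311, 775 and 858 CPM against 217 CPM on average in adipose tissue macrophages and was called higher by 4.35 ± 0.59. Clec12a averaged 653 CPM in Kupffer cells and 500 CPM in monocytes, Scarf1 94.9 CPM against 29.5 in peritoneal macrophages, and the mannose receptor Mrc1 1083 CPM against 1780 in adipose tissue macrophages. The oxidised LDL receptor Olr1 was lower, at 0 to 0.589 CPM in Kupffer libraries and 72.2 CPM on average in colonic macrophages. Of 13 efferocytosis genes, 5 were higher and none lower, with a median of 1.01. Besides Timd4, the receptor kinases Axl and Mertk were higher by 3.12 and 2.87, with Axl at 1523 CPM against 2242 in islet macrophages and Mertk at 593 against 870 in microglia.

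Complement genes and Fc receptors were called higher in 9 of 20 members and lower in 1, with a median of 1.08. The exception was Itgam (CD11b), the alpha chain of complement receptor 3. It measured 10.4, 14.6 and 22.8 CPM in Kupffer libraries, and the other 46 ranged from 28.2 CPM in an islet library to 983 CPM in a peritoneal one. No library overlapped. The difference was -3.37 ± 0.24 log2 units (adjusted p = 7.1e-16), with a smallest difference of -1.84 from islet macrophages (adjusted p = 4.62e-07). Its partner chain Itgb2 was called lower (-1.27 ± 0.15 log2 units), with a Kupffer mean of 340 CPM. Properdin (Cfp) averaged 2920 CPM in Kupffer cells and 3800 in peritoneal macrophages, complement C2 31.1 CPM against 8.93 in colonic macrophages, and C4b 509 CPM against 6453 in peritoneal macrophages. The 3 chains of C1q (C1qa, C1qb and C1qc) were higher by 1.69, 1.66 and 1.63 log2 units and had their highest means in microglia.

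Among 18 genes of Toll-like receptor and LPS sensing, 3 were called higher and 1 lower, and the median was -0.03 log2 units. Over all tested genes 9.41% were higher and 1.5% lower, with a median of 0.17. Small counts in this paragraph are therefore not read as a result about a pathway. Tlr8 was higher by 2.77 ± 0.26, with 98.1, 183 and 310 CPM, and equal in mean to adipose tissue macrophages (186 CPM in both). The calls of Ly96 (1.04) and Tlr1 (1.02) stood close to the limit, and leaving out replicate 8 took Ly96 to 0.63, replicate 3 took Tlr1 to 0.79 and replicate 4 took it to 0.85. Tlr5, the flagellin receptor, had counts in 1 of 6 Kupffer libraries and averaged 85.5 CPM in adipose tissue macrophages. Tlr4 averaged 121 CPM and was not called (0.85 ± 0.49, adjusted p = 0.318). Of 25 cytokines and chemokines, 12 were higher and 1 lower (median 1.496), and for those named here another population had the higher or an equal mean. Il10 averaged 50.4 CPM against 158 in islet macrophages, Il1a 251 CPM against 882 in colonic macrophages, and Ccl24 188 CPM in both Kupffer and adipose tissue macrophages. Ccl9 was lower, at 252 CPM against 2253 in adipose tissue macrophages, and missed the threshold without replicate 3 (-0.998, adjusted p = 0.0516). Of 13 genes of MHC class II presentation, 3 were called higher and none lower, with a median of 0.69. H2-Eb1 averaged 1907 CPM and H2-Ab1 2924 CPM, between microglia (15.1 and 44.4 CPM) and islet macrophages (13655 and 19464 CPM). Both calls depended on single libraries: without replicate 8 the adjusted p was 0.123 for H2-Eb1 and 0.197 for H2-Ab1, without replicate 2 it was 0.0642 and 0.0647, and without replicate 4 or 7 it was 0.0589 and 0.0599 for H2-Ab1. Cd40 was higher by 1.91.

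Adhesion molecules were higher in 8 and lower in 4 of 18 members (median 1.04). Vcam1, the VLA-4 ligand that marks macrophages of liver and spleen, measured 584, 1042 and 1238 CPM against 403 CPM on average in adipose tissue macrophages, and was higher by 6.48 ± 0.48. Itga1 spread from 17.2 to 258 CPM. Pecam1, which is also an endothelial gene, ranged from 45.9 to 308 CPM and averaged 216 CPM in colonic macrophages. Selplg and Cd9 were lower, with differences of -1.72 ± 0.17 and -1.53 ± 0.36. Itga6 was lower (-2.52), and its adjusted p of 0.0287 rose to between 0.0708 and 0.0836 without replicate 2, 4, 7 or 8. Of 20 lysosomal genes 6 were higher and 1 lower (median 0.69). The proteases Ctsl and Lgmn and the acid lipase Lipa were higher by 1.65, 1.38 and 1.55, with means of 1166, 3988 and 1198 CPM. Of 15 genes shared by macrophages, 4 were higher (Mertk, Aif1, C1qa and Fcgr1) and none was lower, with a median of 0.43. The CSF1 receptor Csf1r differed by 0.43 ± 0.13, and the F4/80 gene Adgre1 by 0.98 ± 0.15, just under the limit of 1, which it passed without replicate 1, 2, 4 or 8 (1.01 to 1.16).

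Outside the lists, further set-apart genes had a level of at least 10 CPM in some other population, so that their ratio does not rest on values near 0. There were 13 such genes on no list, and those named in this paragraph were chosen after their values were seen. Creg1, a secreted lysosomal glycoprotein, measured 896, 1098 and 1689 CPM against at most 535 CPM, with a smallest difference of 1.64 ± 0.18 from islet macrophages (adjusted p = 3.08e-09). Tcf7l2, a transcription factor of the Wnt pathway, measured 207, 246 and 391 CPM against at most 95.8 CPM, with a smallest difference of 2.29 ± 0.34 from microglia (adjusted p = 6.05e-07). Cd300ld and Cd300e, 2 members of a family of immunoglobulin-like myeloid receptors, lie 61995 bases apart on chromosome 11. Cd300ld measured 631, 1007 and 1150 CPM against at most 522 CPM, and Cd300e 151, 255 and 461 CPM against at most 27.8 CPM. The acid phosphatase Acp2 averaged 566 CPM against 269 in microglia, and the nucleoside transporter Slc29a1 334 CPM against 127 in colonic macrophages. Genes set apart in neighbouring places were also found on the hepatocyte list: Fga, Fgb and Fgg, the 3 fibrinogen chains, lie next to each other on chromosome 3. Their highest means in another population were 0.0083, 0.0695 and 0.235 CPM, so they are not among the 13 genes above.

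A large share of the set-apart genes were members of the marker lists of other liver cells. Of those that were higher, 17 were members of the endothelial lists and 11 of the hepatocyte list, 1 of the former (Cdh5) also being on a Kupffer list, and 8 were on a Kupffer list. These counts cover list members only, and the lists do not hold every gene known from those cells. The 10 set-apart genes outside the lists of other cells that had the largest smallest difference were Ccdc148, Clec14a, Clec4f, Bace2, Mug1, Kng1, Myct1, Serpina1d, Fat4 and Lepr. Among them Clec14a and Myct1 are known as endothelial genes, and Mug1, Kng1 and Serpina1d are made by hepatocytes. Mmrn2, also known as an endothelial gene, was set apart outside the lists too. So were Serpina1a and Serpina1e, relatives of Serpina1d, and Mup11 and Mup14, relatives of the listed Mup3 and Mup20. The counts by list are therefore a lower bound for set-apart genes known from other liver cells. Clec14a measured 140, 210 and 349 CPM against at most 0.213 CPM, and Lepr, the leptin receptor, 14.8, 68.8 and 104.2 CPM against at most 1.28 CPM. Ccdc148, a coiled-coil protein, averaged 89.8 CPM with at most 0.0664 CPM elsewhere.

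**Figure D3:**
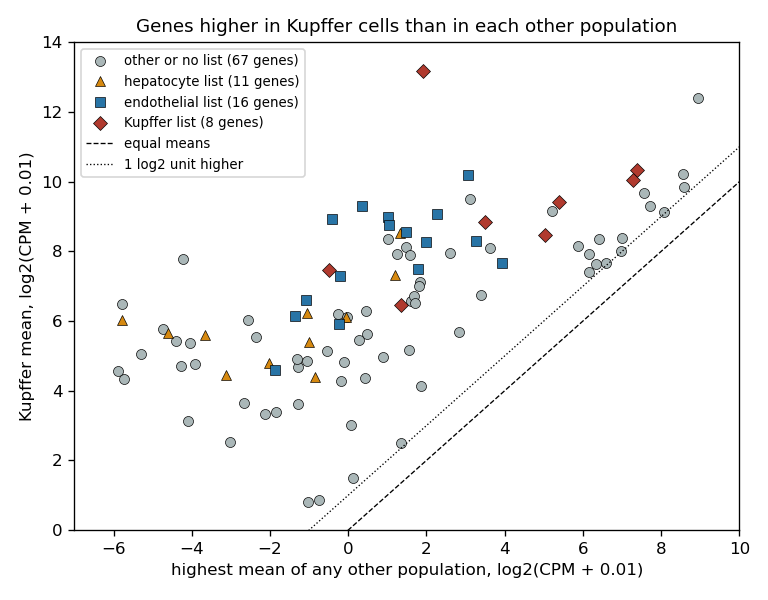
Each point is 1 of the genes set apart higher, plotted by its mean in Kupffer cells against its highest mean in any other population, both as log2(CPM + 0.01), coloured by marker list (Cdh5, on 2 lists, is drawn with the Kupffer list). Endothelial and hepatocyte genes lie in the left and middle of the plot, away from the dotted line, while most genes close to the dotted line, 1 log2 unit above equality, belong to no list.

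All 15 markers of sinusoidal endothelium were called higher and 12 were set apart, with a median difference of 11.15 log2 units. Of 20 hepatocyte genes 19 were called higher and 11 set apart (median 10.19), and of 11 general endothelial genes 10 and 5 (median 10.03). None of the 15 sinusoidal, 20 hepatocyte or 12 general endothelial genes was at 0 in all Kupffer libraries. The summed level of the sinusoidal list was 8035, 9263 and 8427 CPM in Kupffer replicates 1, 2 and 3 and 3719, 4336 and 4203 CPM in replicates 4, 7 and 8, that is 0.372 to 0.926% of all counts. In the other 46 libraries it reached 2221 CPM, in colonic macrophages. The summed hepatocyte list was 623 and 875 CPM in the 2 libraries of cohort 1, 1024 and 1087 CPM in those of cohort 2, and 2065 and 1913 CPM in those of cohort 4, against at most 510 CPM elsewhere. Stab2, the hyaluronan scavenger receptor of sinusoidal endothelium, measured 791, 1130 and 1707 CPM against at most 25.2 CPM, Clec4g 373, 698 and 841 CPM against at most 7.23 CPM, and Dnase1l3, which colonic macrophages also express (1713 CPM), averaged 906 CPM. Ptprb, Cyp4b1, Gpr182 and Kdr averaged 485, 504, 437 and 375 CPM in Kupffer cells. Albumin (Alb) measured 139, 311 and 650 CPM against at most 13.4 CPM, and Serpina3k 31.3 to 366 CPM. Transferrin (Trf) was not called. Of the general endothelial genes, Esam averaged 203 CPM and Cldn5 181 CPM.

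**Figure D4:**
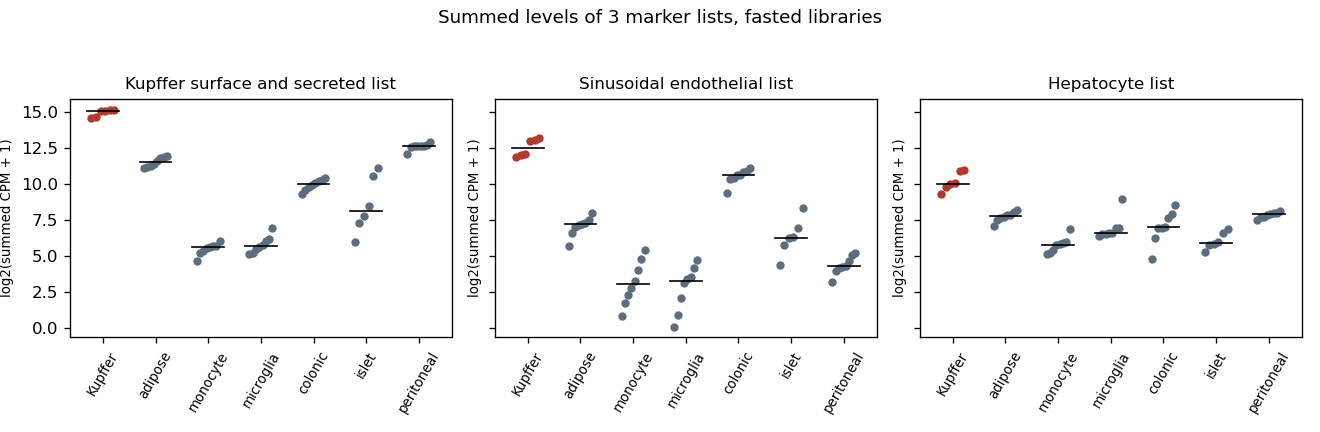
Each point is the summed level of a marker list in 1 library of fasted mice, as log2(summed CPM + 1). Points are red for Kupffer cells and grey for the other populations, and bars are medians. The Kupffer list, the sinusoidal endothelial list and the hepatocyte list are all highest in the 6 Kupffer libraries, and the sinusoidal list splits them into 3 higher and 3 lower libraries.

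The Kupffer list itself summed to 26190 and 25050 CPM in replicates 1 and 2 and to 33760 to 36890 CPM in the other 4, so that the 2 libraries of cohort 1 were lowest for this list. The list summed to at most 7635 CPM elsewhere. Eng followed the sinusoidal list, with 996, 1216 and 993 CPM in replicates 1, 2 and 3 and 573, 555 and 532 CPM in replicates 4, 7 and 8. Clec4f and Vsig4 were lowest in replicates 1 and 2, at 7186 and 7275 CPM for Clec4f and 1689 and 2065 CPM for Vsig4. Cdh5 did not follow the sinusoidal list, and its 165 to 209 CPM in 5 libraries and 122 CPM in replicate 8 came without the step seen for Eng. Members of the endothelial lists differed in this too. Stab2 had the step, with 1357, 1707 and 1320.5 CPM in replicates 1, 2 and 3 and 791, 940 and 872 CPM in replicates 4, 7 and 8. Esam did not, with 181, 229 and 234 CPM against 195, 165 and 214 CPM. The part of endothelial or hepatocyte RNA in any called difference was not tested, and in bulk libraries a contribution of other cells cannot be told apart from expression of the same genes in Kupffer cells.

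Markers of other cells were low. Ecm1, Hgf and Rgs5 led the stellate cell and fibroblast list in Kupffer libraries, with means of 219, 58.2 and 3.55 CPM, and 6 of that list's 14 genes were at 0 in all of them. Of these Ecm1 is expressed by macrophages too (4990 CPM in peritoneal macrophages). Rgs5 was called higher, but not without replicate 1 or 3 (adjusted p = 0.15 and 0.0815). Cholangiocyte genes summed to at most 36.1 CPM, with Spp1, Krt7 and Krt19 at means of 9.18, 0.218 and 0.0231 CPM, and the platelet list, led by Itga2b, Treml1 and Gp9, to at most 7.78 CPM. Treml1 was called higher at a mean of 0.414 CPM, a call lost without replicate 1 or 2 (adjusted p = 0.174 and 0.0635). The list of 10 T and NK cell genes, led by Gzma, Nkg7 and Trbc2, summed to 245 and 342 CPM in replicates 1 and 2 and to at most 27.1 CPM in the others. Trbc2 was called higher, and not without replicate 2 or 3 (adjusted p = 0.146 and 0.274), while Nkg7 was not called (adjusted p = 0.0512) but was without replicate 4, 7 or 8 (0.0273 to 0.0367). Genes of B and plasma cells showed the same 2 libraries highest, at 475 and 568 CPM against at most 183 CPM. Of 9 members 1 was higher (Pax5) and 1 lower. Ighm was the lower one (-1.67 ± 0.46, adjusted p = 0.00876), and Cd79b averaged 53.3 CPM. Neutrophil genes summed to 292 CPM in replicate 1 and 76.7 CPM in replicate 2 and to at most 13.2 CPM in the rest. S100a8, S100a9 and Mmp8 peaked at 112.3, 94.6 and 37.7 CPM in replicate 1, and were not called. Haemoglobin genes (Hbb-bs, Hba-a1 and Hba-a2) reached 94.3, 72.4 and 47.1 CPM in replicate 2 and were not called. Dendritic cell genes summed to 55.8 to 294 CPM: Clec9a, which shares exon bases with Clec1b, was called higher by 3.94, and Zbtb46 and Ccr7 were not called. Cycling genes (Mki67, Cdk1 and Top2a) were not called, and their list summed to 12.6 to 117.4 CPM.

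Markers of the other 6 populations were set beside these. Of 12 peritoneal macrophage genes 7 were lower and 1 higher (median -3.37 log2 units). Alox15 averaged 1.43 CPM in Kupffer cells and 11291 in peritoneal macrophages, Serpinb2 0.287 against 1948 CPM, and Nt5e had counts in 1 of 6 Kupffer libraries against 147 CPM. Rarb, the retinoic acid receptor beta, was the higher one, with a mean of 12.9 CPM against 42.4 in peritoneal macrophages. Of 12 microglial genes 3 were higher (Sparc, P2ry13 and Olfml3) and 3 lower (Siglech and Gpr34 among them). Sparc averaged 158 CPM and P2ry13 285 CPM, against 2076 and 2038 CPM in microglia. Olfml3 averaged 34.1 CPM, and its call was lost without replicate 3, 7 or 8 (adjusted p = 0.151, 0.0872 and 0.309). Siglech averaged 0.974 CPM and Gpr34 5.58 CPM. Of 13 monocyte genes 2 were higher and 1 lower. Treml4, a receptor of patrolling monocytes, measured 530, 697 and 782 CPM in Kupffer cells against an average of 149 CPM in monocytes, and no monocyte library exceeded 277 CPM. Plac8, the second gene called higher than the mean of the 6 others, averaged 71.9 CPM against 672 in monocytes. F13a1 was lower, with 11.8 CPM against 2837 in adipose tissue macrophages. Of 10 adipose macrophage genes 2 were higher (Lyve1 and Cd163) and 2 lower: Retnla averaged 0.761 CPM against 9438 CPM and Cbr2 0.488 against 1154 CPM. Of 10 islet macrophage genes 4 were higher, among them Cd72 (153 CPM against 570 in islet macrophages), Lpl (1047 CPM) and Il1b (545 against 3545 CPM). Of 10 colonic macrophage genes 6 were higher and 1 lower: Tgm2 averaged 1054 CPM against 3165 CPM, and Cd63 was lower, at 42.1 CPM against 763 in islet macrophages.

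Colonic macrophages differed from Kupffer cells by the fewest called genes, 1286 (7.98%), of which 532 were higher in Kupffer cells (3.3%) and 754 lower (4.68%). The counts were 1431 for adipose tissue macrophages (8.88%), 1934 for islet macrophages (12%), 2197 for peritoneal macrophages (13.6%), 2455 for monocytes (15.2%) and 2475 for microglia (15.4%). The order was not that of the profiles' likeness: across genes, Pearson's r of mean log2 levels with Kupffer cells was highest for adipose tissue macrophages (0.86) and lowest for microglia (0.80), with colonic macrophages at 0.84. Genes are not independent replicates, and these values describe the 7 mean profiles. The genes furthest above colonic macrophages were Clec14a, Alb, Mmrn2, Cd300lg and Tek. Known endothelial genes are among them, for example Clec14a, Mmrn2 and Tek. Mmrn2, Cd300lg and Tek averaged 105.95, 169 and 96.9 CPM in Kupffer cells, and Cd300lg also 89.1 CPM in monocytes. The genes furthest below were Igkv12-44, Rnase1, Spink1, Tff2 and Cuzd1, an immunoglobulin segment and 4 genes of secretory epithelium. They averaged 628, 3335, 110, 187 and 207 CPM in colonic macrophages and at most 0.0857 CPM in Kupffer cells. The level of Igkv12-44 rested on some of the 8 colonic libraries, whose median was 2.11 CPM.

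Genes set apart lower were named from those measured in every population. With a mean of at least 10 CPM in each other population, the 10 with the largest smallest difference included Tec, Mctp1, Arid3a, Itgam, B4galnt1, Ugt1a7c, Myo5a, Prkd3 and Cd33. Cd33, an inhibitory sialic acid lectin, measured 61.4, 98.4 and 179 CPM in Kupffer libraries, and the others ranged from 188 CPM in a monocyte library to 1606 CPM in a microglial one. The difference was -2.45 ± 0.21 log2 units (adjusted p = 5.22e-13). With Itgam and Ptafr it was 1 of the 3 genes whose Kupffer libraries all lay below all others. Ptafr, the receptor of platelet-activating factor, measured 30.1, 53.1 and 74.3 CPM against 76.9 CPM or more elsewhere, and differed by -2.84 ± 0.25 (adjusted p = 1.36e-12). Tec, a non-receptor tyrosine kinase, averaged 8.80 CPM, with a smallest difference of -2.16 from monocytes (adjusted p = 0.000408).

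Others of these genes varied widely among Kupffer libraries. Myo5a, an unconventional myosin, ranged from 0.118 to 26.8 CPM, the protein kinase D gene Prkd3 from 0.635 to 55.5 CPM, and the ganglioside synthase B4galnt1 from 0.265 to 75.1 CPM. Mctp1 reached 22.3 CPM in replicate 1 against at most 2.84 CPM in the rest, and Arid3a 10.8 CPM in replicate 2 against at most 3.26. For Ugt1a7c, which shares exons with other genes of its locus, counts cannot be assigned to 1 gene with certainty; it averaged 8.73 CPM. Fewer cells that hold a transcript and less of it in each cell cannot be told apart in these libraries.

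**Figure D5:**
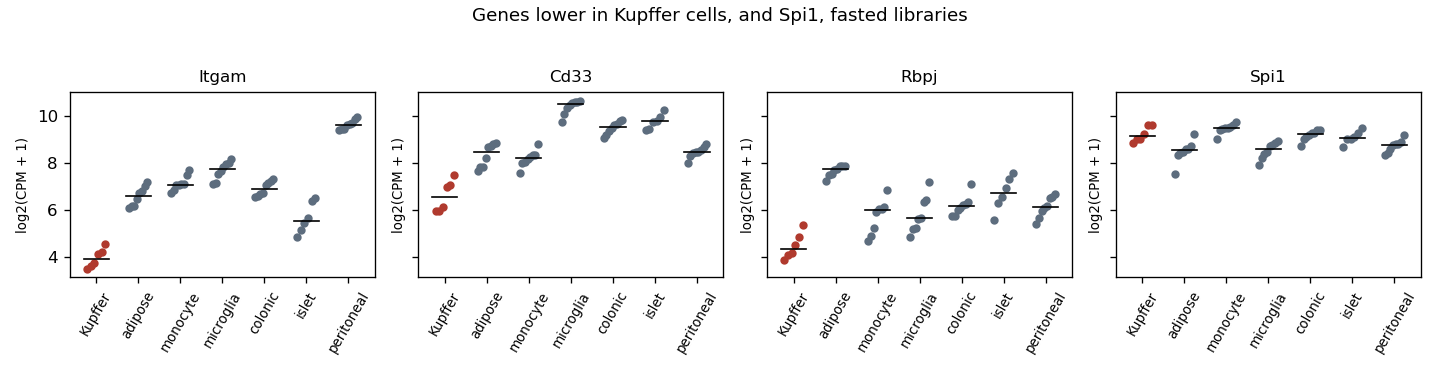
Each point is 1 library of fasted mice (red for Kupffer cells, grey for the other populations). Bars are medians, and the y axis is log2(CPM + 1). All 6 Kupffer libraries lie below every other library for Itgam and Cd33. For Rbpj they lie at the bottom of the range with some overlap, while Spi1 overlaps throughout.

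The same contrast in refed mice, with 7 Kupffer libraries among 58 and no library of the fasted contrast, gave 1480 higher (9.46%) and 349 lower genes (2.23%) of 15649 tested. Of 1349 genes called higher in fasted mice and tested in refed mice, 905 were called higher there too, and of 241 called lower 126 were. Of the genes set apart higher, 91 were tested and 90 called higher than the mean of the others, and of the 23 set apart lower 18 were called lower. Clec4f differed by 14.41 log2 units in refed mice, Id3 by 6.08, Slc40a1 by 7.85, Itgam by -2.57 and Rbpj by -2.17. Labels of 2 refed Kupffer and 2 refed islet libraries are described as fasted in 1 field, and without them the refed counts were 1397 higher and 396 lower genes. The Kupffer difference itself differed between refed and fasted mice for 1 gene of 18640 (0.00536%), Ptgir, the prostacyclin receptor. Ptgir measured 0 to 15.1 CPM in fasted Kupffer libraries and reached 106.02 CPM in other libraries. Called in opposite directions in fasted and refed mice were 2 genes, the potassium channel Kcnk5 (4.24 and -4.88 log2 units) and the predicted gene Gm43852 (fitted values of -8.29 and 3.85, with the fasted Kupffer libraries at 0). The fasted call of Kcnk5 was lost without replicate 2 or 3 (adjusted p = 0.0774 and 0.372).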

How the data were processed

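RNA of sorted cells was copied with the Smart-seq2 protocol from polyA RNA, per the labels' protocols. The values are counts of reads per gene as deposited by the authors, in 1 table of the experiment with 50686 gene identifiers. The submitters' processing notes name Trimmomatic 0.36, STAR 2.5.1a, featureCounts and the build mm10; neither the annotation nor the strand setting of the counting is named there, so reads of overlapping genes cannot be assigned with certainty (46 of the 195 genes looked up share exon bases with another gene). Of the identifiers, 310 had no symbol and held 0.0446% of the counts.

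Counts of the 52 fasted libraries were filtered with filterByExpr, scaled with TMM and fitted with edgeR 4.0.16 (R 4.3.3) by the quasi-likelihood test, with population and cohort as terms and each other population weighted equally. P-values were adjusted by Benjamini and Hochberg over all genes tested. The SE after ± was worked back from the test, as the size of the log2 difference divided by the square root of its F statistic. CPM are TMM-scaled for genes and unscaled for sums over lists. Libraries held 9898784 to 23684196 counts, and precision is limited by library numbers and by low counts. Limits of counting error are not given for single libraries because reads carry no molecular identifiers. The scripts were tested on simulated data. The refed libraries were fitted in the same way, and the refed against fasted difference with an interaction term.

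The members, the 34 gene lists and the tests were chosen with earlier results of these data known. Named genes were the Kupffer lists and markers, the 10 set-apart higher genes outside the lists of other cells with at least 10 CPM in Kupffer cells and the largest smallest difference, the 10 set-apart lower genes with at least 10 CPM in every other population, up to 3 higher and 3 lower called members of each further list, the 3 members of each list of other cells with the highest Kupffer mean, and the 5 genes in each direction furthest from the population with the fewest called genes, with at least 10 CPM in the higher of the 2. Other genes were named after their values were seen: Creg1, Hfe, Cd300ld, Cd300e, Tcf7l2, Acp2, Slc29a1, Ptafr, Ptprb, Kdr, Gpr182, Cyp4b1, Csf1r, Adgre1, Tlr4, Fth1, Ftl1, Acvrl1, Hes1, Mrc1, Itgb2, Abca1, Apoe, C1qb, C1qc, Slc11a1, Ncoa4, Slc48a1, Kcnk5, Gm43852, Ptgir, Pax5, Angptl4, Fcgr1, Fga, Fgb and Fgg. Some genes that the rule names are not reported here. Alternatives were RLE scaling, DESeq2 1.42.0, limma-voom 3.58.1, other filters on low counts, no cohort term, a replicate block, single cohorts, and leaving out each Kupffer library or each other population. Leaving out colonic replicates 3 and 5, and the limit of a mean of 5 CPM, were added after the data had been seen.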

Additional observations from a re-analysis of the deposited data

Results flagged for a closer look

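Among the 6 Kupffer libraries, a single library stood apart from the other 5 for 35 of the named genes and 2 of the marker lists. The gap was wider than Dixon's 95% limit, and 210 values were tested. Chance flags about 1 in 20 groups of normally spread values, a rate that does not hold for genes near 0. For Tlr5, Nt5e, Krt7, Krt19 and Igkv12-44 the other 5 libraries were at 0 CPM, so that any count flags them. Replicate 8 was the high library for Id3 (2023 CPM), Cd207 (785 CPM), Tfec (196 CPM), Runx3 (44.6 CPM), Hfe (987 CPM), Blvrb (557 CPM), Ly96 (132.5 CPM), Ccl9 (498 CPM), Cd63 (97.2 CPM) and Serpinb2 (0.897 CPM). Replicate 3 was high for Marco (1923 CPM), Cxcl13 (2244 CPM), Kcnk5 (11.8 CPM), Krt19 (0.139 CPM) and Tlr5 (0.0693 CPM). Replicate 4 was high for Fabp7 (599.9 CPM), Cbr2 (1.91 CPM) and Igkv12-44 (0.053 CPM). Replicate 7 was high for Tgm2 (1450 CPM), Mug1 (131 CPM) and Alox15 (3.55 CPM).

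Replicates 1 and 2, the libraries of cohort 1, were high for blood cell genes. Replicate 1 held the highest S100a8 (112.3 CPM), S100a9 (94.6 CPM), Mmp8 (37.7 CPM) and Treml1 (1.83 CPM), and its neutrophil list summed to 292 CPM. It was also high for Mctp1 (22.3 CPM), Olr1 (0.589 CPM) and Nt5e (0.0589 CPM). Replicate 2 held the highest Hbb-bs (94.3 CPM), Hba-a1 (72.4 CPM), Hba-a2 (47.1 CPM) and Trbc2 (55.8 CPM), and its erythroid list summed to 251 CPM. It was also high for Arid3a (10.8 CPM) and Krt7 (1.31 CPM), and low for Slc48a1 (156 CPM).

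The difference of Kupffer cells from the other populations itself differed between refed and fasted mice for Ptgir, by -10.44 log2 units (edgeR's interaction test).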

How the results depend on the processing

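Of the genes tested, 9.41% were higher, 1.5% lower, 0.633% set apart higher and 0.143% set apart lower. Without a filter on low counts (29891 genes tested) the counts grew from 1517 to 2659 higher (8.9%) and from 241 to 402 lower (1.34%), with 0.535% and 0.127% set apart. With a mean of at least 5 CPM, 6.94% were higher. DESeq2 gave 4.2% lower and 0.689% set apart lower, and limma-voom 2.52% lower and 2.17% set apart higher. With no minimum difference 2.4% were lower, and with a minimum of 2 log2 units 0.968% were lower and 0.0434% set apart lower. Within cohorts 1, 2 and 4, which have fewer samples, 3.74, 4.14 and 4.14% were higher, 0.297, 0.648 and 0.457% lower, 0.0531, 0.081 and 0.0421% set apart higher, and 0.0106, 0.0873 and 0.0481% set apart lower. Without microglia, 0.317% were set apart lower, with 1 comparison fewer to pass. Leaving out 1 Kupffer library gave 0.0834% (without replicate 4) to 0.155% set apart lower.

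Under limma-voom 33 of the named genes lost their call. Clec4f, Cd5l and Slc40a1 had adjusted p of 0.98, 0.84 and 0.65, against 6.77e-19, 1.33e-12 and 2.87e-20 in edgeR's test. The median voom weight in Kupffer libraries was 2.62e+08 for Clec4f and 6590000 for Cd5l, against 0.258 over all tested genes. Direction was reversed for Olfml3 (-0.053) within cohort 1 and Treml1 (-1.45) within cohort 2; the cause was not tested.

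With a replicate block in place of cohort, 8.96% were higher, 1.38% lower, 0.72% set apart higher and 0.112% set apart lower, and 6 of the named genes lost their call. Of 34 pairs of same-numbered libraries, 0 correlated above 0.1 in their deviations from the population means (-0.038 to 0.0407, mean 0.0021). Pairs with other numbers of the same cohort averaged 0.00175. Such low values also for a shared cohort cannot show whether same-numbered libraries came from the same mice. At 9898784 to 23684196 counts a library, genes near 0 counts in a population have no usable ratio there.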
